A study of Mus musculus with 10 samples.

Results

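Brain endothelial cells (BECs) carry a set of genes that hold the clotting of blood in balance, and 8 of these genes were followed here in female APP/PS1 and control mice: Vwf, Thbd, Procr, Tfpi, Plat, F8, F3 and F2r. They were chosen by name for their part in coagulation and fibrinolysis. Their measured values did not enter the choice, but earlier results of these data were known. All 8 were found among the 14106 genes of the deposited table. BECs from the cortex of 1 year old mice had been sequenced in bulk in 10 libraries, of which 5 came from APP/PS1 animals and 5 from age-matched controls. APP/PS1 mice carry transgenes of familial Alzheimer's disease and deposit amyloid in the brain, and the controls (genotype WT in the labels) shared their C3H/BL6 background. All mice were female and were perfused with cold PBS, the meninges were removed, and CD31+ cells were drawn from the dissociated cortex with microbeads. The sources used here do not give the promoter that drives the transgenes, nor how many mice went into a library, so the spread given is that between libraries.

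Coagulation starts when tissue factor, the product of F3, meets plasma factors and thrombin is formed. Healthy endothelium opposes this at its surface. Thrombomodulin (Thbd) binds thrombin and turns it toward the activation of protein C, the endothelial protein C receptor (Procr) presents protein C to that complex, and tissue factor pathway inhibitor (Tfpi) blocks the first step. Endothelial cells also release von Willebrand factor (Vwf), which captures platelets and carries factor VIII (F8), and tissue plasminogen activator (Plat), which starts the lysis of fibrin. F2r encodes PAR1, the receptor through which thrombin acts on the cell.

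None of the 8 genes differed between APP/PS1 and control BECs beyond the spread between libraries once p values were adjusted over all genes. With the replicate number as a block, limma called 0 of the 8 at an adjusted p under 0.05, against a background of 0% of all 14106 genes called, the smallest adjusted p of any gene being 0.195. At an unadjusted p under 0.05 there was 1 of the 8, Vwf, against a background of 8.03% of all genes (5.91% lower and 2.13% higher). Lower values in APP/PS1 BECs in at least 4 of 5 pairs were seen for 4 of the 8 (Vwf, Tfpi, F8 and F3; background 23.1%) and higher values in at least 4 of 5 pairs for 1 of the 8 (Procr; background 20.7%). Without the block, limma called 648 of all genes and again 0 of the 8, and limma-voom with the block called 0 genes. No gene of the 8 moved the same way in all 5 pairs (background 7.99%, of which 5% lower and 2.99% higher), and for none did the 2 groups of libraries lie apart (background 7.88%). Log2 fold changes were positive for 3 and negative for 5 of the 8 (2 and 6 when libraries were scaled by their totals), and their median was −0.14, beside −0.00377 for all genes.

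Some facts of the libraries bear on every value. The deposited values are log2 CPM, which scales the counts of a gene to the size of its library, after the authors' batch correction, and they convert back to whole adjusted counts, which summed to between 22371766 and 126686149 per library, with replicate 1 the shallowest library of both groups. The correction set the mean of the control and APP/PS1 library of each replicate number nearly equal across the 5 pairs: in the median gene these pair means had an SD of 0.00353 log2 units, against 0.0863 for the deviation of a library from its pair mean. A high control value is therefore matched by a low APP/PS1 value of the same number, and only the 5 differences within pairs are free to vary. Replicate 1 of F3 was an exception. The 12 endothelial markers were all measured, at a median difference of 0.03 log2 units, while 10 of 12 platelet and megakaryocyte markers, among them Pf4 and Gp9, were not among the genes tested. Markers of mural cells (10 of 10 lower in APP/PS1, median log2 fold change −0.76), astrocytes (7 of 8 lower, median −0.96) and the oligodendrocyte lineage (8 of 8 lower, median −1.48) had lower levels in APP/PS1 libraries, with 0 genes past the adjusted threshold. In bulk libraries, fewer cells of a type and less RNA per cell cannot be told apart.

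**Figure D1:**
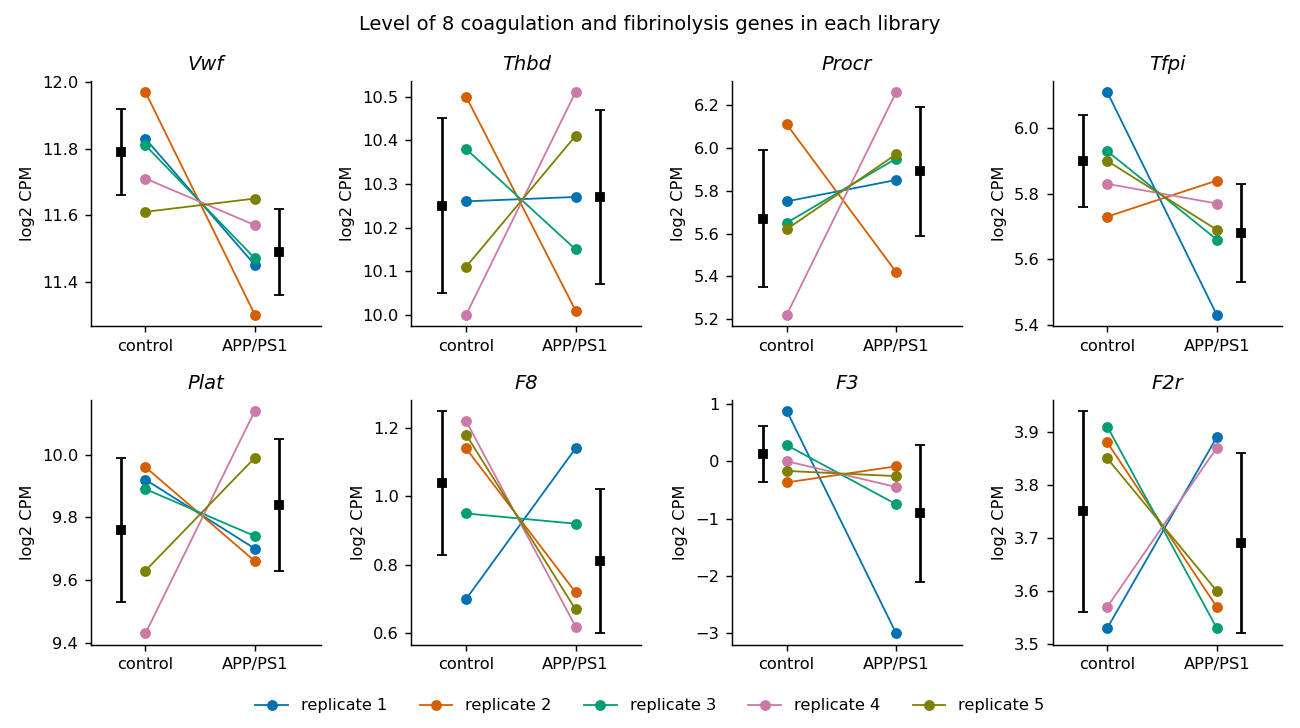
Level of each of the 8 genes in log2 CPM in the 5 control and 5 APP/PS1 libraries; coloured lines join the libraries of a replicate number, and black squares with bars are the group mean and SD (n = 5). The groups overlap for all 8 genes. Except for replicate 1 in F3, the lines of a panel cross near 1 point because the batch correction had set the pair means nearly equal. In F3 the APP/PS1 library of replicate 1 stands alone at −3.00, and the mean of its pair lies below those of the other pairs.

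The genes lay at very different levels, which were compared per length of exon. Per kilobase of exon, Thbd was highest at 8.36 ± 0.19 log2 CPM per kilobase (SD, n = 10 libraries), rank 78 of the 14106 genes. Vwf followed at 7.63 ± 0.20 (rank 141) and Plat at 7.16 ± 0.21 (rank 215). These 3 genes, which act on platelets, thrombin and plasminogen, lay near the top of the table, at percentiles of 99.5, 99 and 98.5. Procr was at 4.76 ± 0.32 log2 CPM per kilobase, Tfpi at 3.34 ± 0.18 and F2r at 1.98 ± 0.17, at percentiles of 88.9, 68.2 and 42.9. F3 (−1.73 ± 1.02) and F8 (−2.38 ± 0.23) were among the weakest genes of the table, at percentiles of 6.66 and 4.14. Each gene was above the next in all 10 libraries, except that F3 was above F8 in 9 of 10. The difference between F3 and F8, 0.65 ± 1.12 log2 units, was within its spread over libraries, and the ranges of Vwf (7.29 to 7.96) and Plat (6.79 to 7.5) overlapped. These orders depend on the exon lengths of the annotation, from 2031 bases for Procr to 16064 for Vwf.

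**Figure D2:**
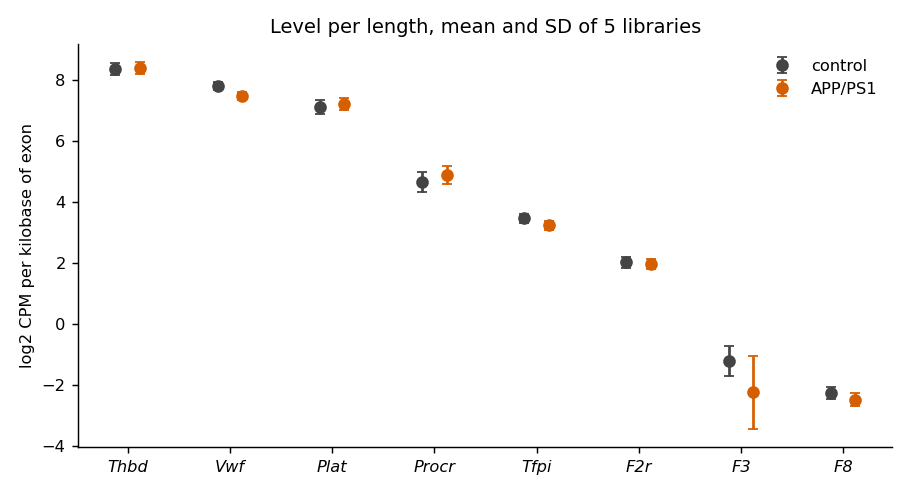
Level of each gene in log2 CPM per kilobase of annotated exon, ordered from high to low; points are the mean and bars the SD of 5 control or 5 APP/PS1 libraries. Thbd, Vwf and Plat lie above 7, and F3 and F8 below 0, in both groups, and the points of the 2 genotypes lie close together except for F3.

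Vwf encodes the large multimeric protein stored in the Weibel-Palade bodies of endothelium. The gene lies on chromosome 6 from 125546774 to 125686679 of GRCm38, on the plus strand, with 56 separate blocks of exon and no overlapping gene. Its level in the control libraries of replicates 1 to 5 was 11.83, 11.97, 11.81, 11.71 and 11.61 log2 CPM. In the APP/PS1 libraries of the same numbers it was 11.45, 11.30, 11.47, 11.57 and 11.65. The APP/PS1 library was the lower one in 4 pairs and marginally the higher one in the pair of replicate 5, and the groups overlapped only through the libraries of replicate 5. Mean levels were 11.79 ± 0.13 for control and 11.49 ± 0.13 for APP/PS1 libraries (SD, n = 5 per group), which is a log2 fold change of −0.30 (SE 0.107, 95% interval −0.56 to −0.04, unadjusted p = 0.0319 and adjusted p = 0.581 from limma). In a two-sided exact sign-flip test over the 5 pairs, 4 of the 32 sign patterns gave a mean as far from 0, and the smallest p that 5 pairs allow is 0.0625. Leaving out single replicates put the Vwf difference between −0.38 and −0.21. Every Vwf value rested on at least 61863 adjusted counts.

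Several marker lists had lower levels in APP/PS1 BECs beside Vwf, which is known as a gene of larger vessels and of veins. All 8 venous markers had negative log2 fold changes, as did 7308 of all 14106 genes, and their median was −0.30. Of these 8, 3 had an unadjusted p under 0.05 (background 5.91% lower at that p) while 0 passed the adjusted threshold. Their summed level ranged from 2010 to 2620 CPM in control and from 1830 to 2350 CPM in APP/PS1 libraries. By pair, their median difference was −0.37, −0.40, −0.49, 0.05 and −0.25 log2 units, beside −0.38, −0.67, −0.34, −0.14 and 0.04 for Vwf, so that the signs differed in replicates 4 and 5. The 10 mural markers had medians of −1.5, −0.30, −0.68, −1.48 and 0.08 and the 3 measured fibroblast markers −1.36, −0.47, −0.90, −0.46 and 0.11, with the sign of Vwf in all 5 pairs. The values that decide these likenesses of sign lay near 0, with Vwf at 0.04 in replicate 5 and the venous median at 0.05 in replicate 4. Except in replicate 4, the fibroblast medians were the values of Pdgfra, which is also in the oligodendrocyte lineage list. Of the fibroblast markers only Dcn had the sign of Vwf throughout: Pdgfra was at 0.13 in replicate 4 and Col1a2 at −0.40 in replicate 5. By size the mural medians did not follow Vwf: they were −1.48 beside −0.14 in replicate 4 and −0.30 beside −0.67 in replicate 2. Of the mural markers 9 had an unadjusted p under 0.05, all lower, and their summed level ranged from 619 to 1040 CPM in control and from 323 to 623 CPM in APP/PS1 libraries. The venous marker furthest from 0 was Lcn2, at a log2 fold change of −0.50. Of the 8 arterial markers, 6 were higher and 2 lower (5 and 3 with scaling by totals), with a median log2 fold change of 0.06, furthest from 0 in Hey1 (0.19). Other genes with the signs of Vwf were not counted, and the part of vessel type, mural cells or fibroblasts in the Vwf difference was not tested.

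The other genes of the Weibel-Palade body were all measured, 10 of 10, and 5 had higher and 5 lower values in APP/PS1 BECs, the median being −0.04 log2 units. An unadjusted p under 0.05 was found for 3, all lower (background 5.91% of all genes lower at that p), and 0 passed the adjusted threshold. These 3 were Rab27a, Sytl4 and Rab3d, whose products are known from the trafficking and release of secretory granules. Rab27a, the small GTPase that settles on maturing Weibel-Palade bodies, was 4.57 log2 CPM over all libraries, with differences of −0.38, −0.15, −0.67, −0.31 and −0.11 in the 5 pairs and a log2 fold change of −0.32 (SE 0.0905, adjusted p = 0.55 from limma). Rab3d was also lower in all 5 pairs, with differences between −0.20 and −0.02 log2 units. It is named because it passed the unadjusted threshold, after its values were seen. Sytl4, a binding partner of Rab27a, had a log2 fold change of −0.29 and was lower in 4 of 5 pairs. Myrip, which links Rab27a to the cytoskeleton, was the most strongly expressed of the group at 7.53 log2 CPM and had a log2 fold change of −0.28 (adjusted p = 0.754 from limma). Selp, the P-selectin gene, spread most of the 10: its differences were 1.69, −2.14, −0.31, 1.36 and 0.50, so that its mean of 0.22 lay well within that spread. Selp was singled out after its values were seen.

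F8 encodes the clotting factor that circulates bound to von Willebrand factor. It lies on chromosome X from 75172715 to 75382615, on the minus strand, and its span overlaps 3 annotated genes. Of these only Fundc2, on the other strand, was among the genes tested, and F8 shares 0 bases of exon with it. Shared exon bases were not counted for the processed pseudogenes Gm6039, on the other strand, and Gm8522, on the same strand. The control libraries of replicates 1 to 5 were at 0.70, 1.14, 0.95, 1.22 and 1.18 log2 CPM, and the APP/PS1 libraries at 1.14, 0.72, 0.92, 0.62 and 0.67. APP/PS1 libraries were lower in 4 pairs and higher in that of replicate 1, where the values rested on 37 and 48 adjusted counts. The log2 fold change was −0.22 (SE 0.163, 95% interval −0.63 to 0.18, adjusted p = 0.824 from limma; two-sided exact sign-flip p = 0.25). Leaving out single replicates put F8 between −0.39 (without replicate 1) and −0.13 (without replicate 4). Lman1 and Mcfd2, the pair of proteins that carries factors V and VIII out of the endoplasmic reticulum, differed by −0.00 and 0.01 log2 units, at levels of 7.01 and 6.71 log2 CPM. All 5 measured genes for factor processing and release lay within −0.00 to 0.08, of which Furin, a protease that matures pro-proteins, was highest in level at 7.56 log2 CPM and had the difference of 0.08. Vkorc1l1, a vitamin K reductase, was at 0.04.

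Among the anticoagulant genes, Thbd gave almost equal means in both groups. It is a gene of 1 exon on chromosome 2 from 148404466 to 148408188, on the minus strand. Its control libraries were at 10.26, 10.50, 10.38, 10 and 10.11 log2 CPM for replicates 1 to 5. Its APP/PS1 libraries were at 10.27, 10.01, 10.15, 10.51 and 10.41. The APP/PS1 value was the lower one in the pairs of replicates 2 and 3 and the higher one in those of replicates 4 and 5, while replicate 1 differed by 0.01. Its log2 fold change was 0.02 (SE 0.155, 95% interval −0.36 to 0.40, adjusted p = 0.983 from limma; two-sided exact sign-flip p = 0.812). The sign of so small a mean was not fixed: it was −0.10 without replicate 4, −0.05 without replicate 5 and −0.02 when libraries were scaled by their totals alone.

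Procr, on chromosome 2 from 155751117 to 155755471 on the plus strand, was the one gene of the 8 with higher values in APP/PS1 BECs in 4 of 5 pairs. The control libraries were at 5.75, 6.11, 5.65, 5.22 and 5.62 log2 CPM and the APP/PS1 libraries at 5.85, 5.42, 5.95, 6.26 and 5.97. The pair of replicate 4 differed most (1.04 log2 units) and that of replicate 2 went the other way (−0.69). For Procr the log2 fold change was 0.22 (SE 0.234, 95% interval −0.35 to 0.80, adjusted p = 0.867 from limma; two-sided exact sign-flip p = 0.5). Without replicate 4 it was 0.02, and without replicate 2 it was 0.45.

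Tfpi, on chromosome 2 from 84432855 to 84476775 on the minus strand, was lower in APP/PS1 BECs in 4 of 5 pairs. Its control libraries were at 6.11, 5.73, 5.93, 5.83 and 5.90 log2 CPM and its APP/PS1 libraries at 5.43, 5.84, 5.66, 5.77 and 5.69. Replicate 1 differed most, by −0.68, and replicate 2 was 0.11 higher. For Tfpi it came to a log2 fold change of −0.22 (SE 0.116, 95% interval −0.51 to 0.06, adjusted p = 0.733 from limma; two-sided exact sign-flip p = 0.188). Without replicate 1 it was −0.11. The signs of the Tfpi differences were those of the astrocyte and oligodendrocyte medians, given with F3, in all 5 pairs, with Tfpi near 0 in replicate 4 (−0.06). How many of all genes have these signs was not counted, and the part of these cells in the Tfpi difference was not tested.

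The other anticoagulant genes were measured for 7 of 10, of which 3 were higher and 4 lower, with a median log2 fold change of −0.01. An unadjusted p under 0.05 was found for 1, Hs3st1 (background 8.03%), and 0 passed the adjusted threshold. Hs3st1 encodes the sulfotransferase that makes the antithrombin-binding site of heparan sulfate. It was lower in all 5 pairs, by −0.36, −0.04, −0.42, −0.29 and −0.21 log2 units, with a log2 fold change of −0.26 (unadjusted p = 0.00845, adjusted p = 0.537 from limma). Serpine2, an inhibitor of thrombin, was at −0.25 and lower in 4 of 5 pairs. The strongest genes of the group, Entpd1 (the ectonucleotidase CD39 that removes ADP, at 8.44 log2 CPM) and Anxa5 (the phospholipid-binding annexin V, at 8.12), had log2 fold changes of 0.04 and 0.03.

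F3 had the log2 fold change furthest from 0 of the 8 genes, but not without replicate 1, where it was −0.32 and that of F8 −0.39, and it had the least support in counts. Tissue factor is made in the brain chiefly by astrocytes and around vessels by other perivascular cells, and little by resting endothelium. The gene lies on chromosome 3 from 121723537 to 121735048, on the plus strand, with no overlapping gene. The control libraries of replicates 1 to 5 were at 0.88, −0.37, 0.28, 0.00 and −0.17 log2 CPM and the APP/PS1 libraries at −3.00, −0.09, −0.75, −0.45 and −0.26. The APP/PS1 library of replicate 1 stood far below all others, at 2 adjusted counts against 42 in the control library of that number. The mean of this pair in log2 CPM lay below those of the other pairs, which were nearly equal. In the other pairs F3 rested on 39 to 107 adjusted counts, with differences of 0.28, −1.03, −0.45 and −0.08. F3 thus had a log2 fold change of −1.03 (SE 0.619, 95% interval −2.56 to 0.50, adjusted p = 0.784 from limma; two-sided exact sign-flip p = 0.188). By limma-voom, which gives low counts less weight, it was −0.50.

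Of all genes, the 2 whose 5 paired differences lay nearest to those of F3 were Gjb6 and Ntsr2, at a root mean square distance of 0.40 and 0.42 log2 units, where the differences of F3 themselves had a root mean square of 1.81. Gjb6 encodes connexin 30, a marker of astrocytes, and Ntsr2 a neurotensin receptor that is also known from astrocytes. Gjb6 differed by −3.80, 0.99, −1.22, −0.72 and −0.52 in the 5 pairs, and its lowest library held 1 adjusted count. The pair of replicate 1, with F3 at 2 adjusted counts in its APP/PS1 library, weighs most in this likeness. For the whole list of 8 astrocyte markers, the median difference by pair was −2.84, 0.69, −1.53, −0.74 and −0.20, beside −3.88, 0.28, −1.03, −0.45 and −0.08 for F3. The 8 oligodendrocyte lineage markers had medians of −2.70, 0.52, −1.35, −1.93 and −1.55, so that both lists had the sign of F3 in all 5 pairs. Of the astrocyte markers, 7 were lower and 1 (Gja1) higher in APP/PS1 BECs, 2 of them with an unadjusted p under 0.05 (background 8.03%), and the furthest from 0 was Aldoc at −1.59. Their summed level, of which Gja1 made up most, ranged from 170 to 208 CPM in control and from 171 to 212 CPM in APP/PS1 libraries. The summed level of the oligodendrocyte lineage markers ranged from 25 to 260 CPM in control and from 15 to 122 CPM in APP/PS1 libraries. Other genes with the signs of F3 were not counted, and the part of astrocyte or oligodendrocyte RNA in the F3 difference was not tested.

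**Figure D3:**
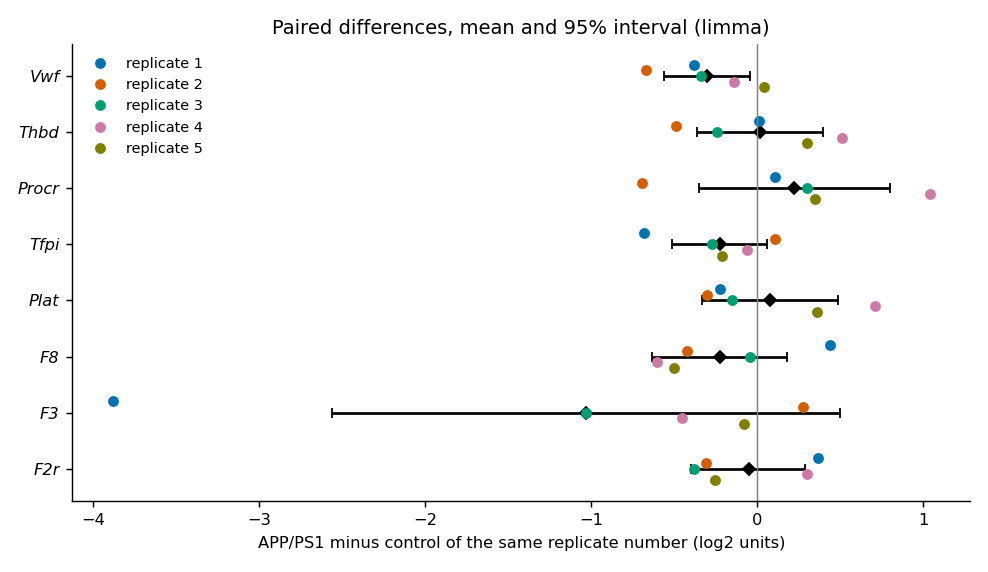
Difference between the APP/PS1 and control library of the same replicate number, in log2 units, for each of the 8 genes; coloured points are the 5 pairs, and black diamonds with bars the log2 fold change and its 95% interval from limma. The interval leaves out 0 only for Vwf (−0.56 to −0.04, unadjusted), and the interval of F3 reaches from −2.56 to 0.50 because of the single pair at −3.88.

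Fibrinolysis was represented by Plat, on chromosome 8 from 22757727 to 22782844 on the plus strand. Its control libraries were at 9.92, 9.96, 9.89, 9.43 and 9.63 log2 CPM and its APP/PS1 libraries at 9.70, 9.66, 9.74, 10.14 and 9.99. APP/PS1 libraries were lower in replicates 1, 2 and 3 and higher in replicates 4 and 5, the 2 numbers that the sample labels place in a single batch. The log2 fold change was 0.08 (SE 0.167, 95% interval −0.33 to 0.49, adjusted p = 0.93 from limma; two-sided exact sign-flip p = 0.75), and −0.08 without replicate 4. Of 13 other fibrinolysis genes 9 were measured, with 4 higher, 5 lower and a median log2 fold change of −0.03. Among them 1 had an unadjusted p under 0.05 (background 8.03%) and 0 passed the adjusted threshold. That gene was Lrp1, the endocytic receptor that clears tissue plasminogen activator and its complexes, at a log2 fold change of −0.55 (adjusted p = 0.569 from limma), lower in 4 of 5 pairs. Lrp1 is also known from mural cells, whose medians by pair are given with Vwf, and Lrp1 differed by −1.18, −0.24, −0.70, −0.72 and 0.07. The signs of both were the same in all 5 pairs. Other genes with these signs were not counted, and the mural cells' part in the Lrp1 difference was not tested. Serping1, the C1 inhibitor, was at −0.45 with differences of either sign. Anxa2, the endothelial receptor for plasminogen and its activator, was the strongest at 8.24 log2 CPM and differed by 0.04.

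F2r stood for the response to thrombin. It lies on chromosome 13 from 95601803 to 95618487, on the minus strand. The control libraries were at 3.53, 3.88, 3.91, 3.57 and 3.85 log2 CPM and the APP/PS1 libraries at 3.89, 3.57, 3.53, 3.87 and 3.60. APP/PS1 libraries were higher in replicates 1 and 4 and lower in the other three. F2r had a log2 fold change of −0.05 (SE 0.139, 95% interval −0.40 to 0.29, adjusted p = 0.951 from limma; two-sided exact sign-flip p = 0.75). Its paralog F2rl1, which encodes PAR2 and was the only measured one of 3 other protease-activated receptors, differed by 0.02, at 2.88 log2 CPM.

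Plasma factors made by the liver were mostly not among the genes tested, as for 12 of 14 in the list of procoagulant factors and fibrin. The 2 measured were F5 and F2. F5, the gene of the cofactor V, was at 5.43 log2 CPM, with differences of −0.82, 0.12, −0.20, −0.72 and −0.63 and a log2 fold change of −0.45 (unadjusted p = 0.0265, adjusted p = 0.571 from limma). F2, the prothrombin gene, was at −0.80 log2 CPM, and its log2 fold change of 0.36 came from a single pair at 2.41. Over the whole list of 34 measured pathway genes, 18 were higher and 16 lower, with a median log2 fold change of 0.01 (12 higher, 22 lower and −0.02 with scaling by totals), and 0 passed the adjusted threshold. At an unadjusted p under 0.05 there were 6, all lower, which is 17.6% of the list. The background was 8.03% in either direction and 5.91% lower.

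**Figure D4:**
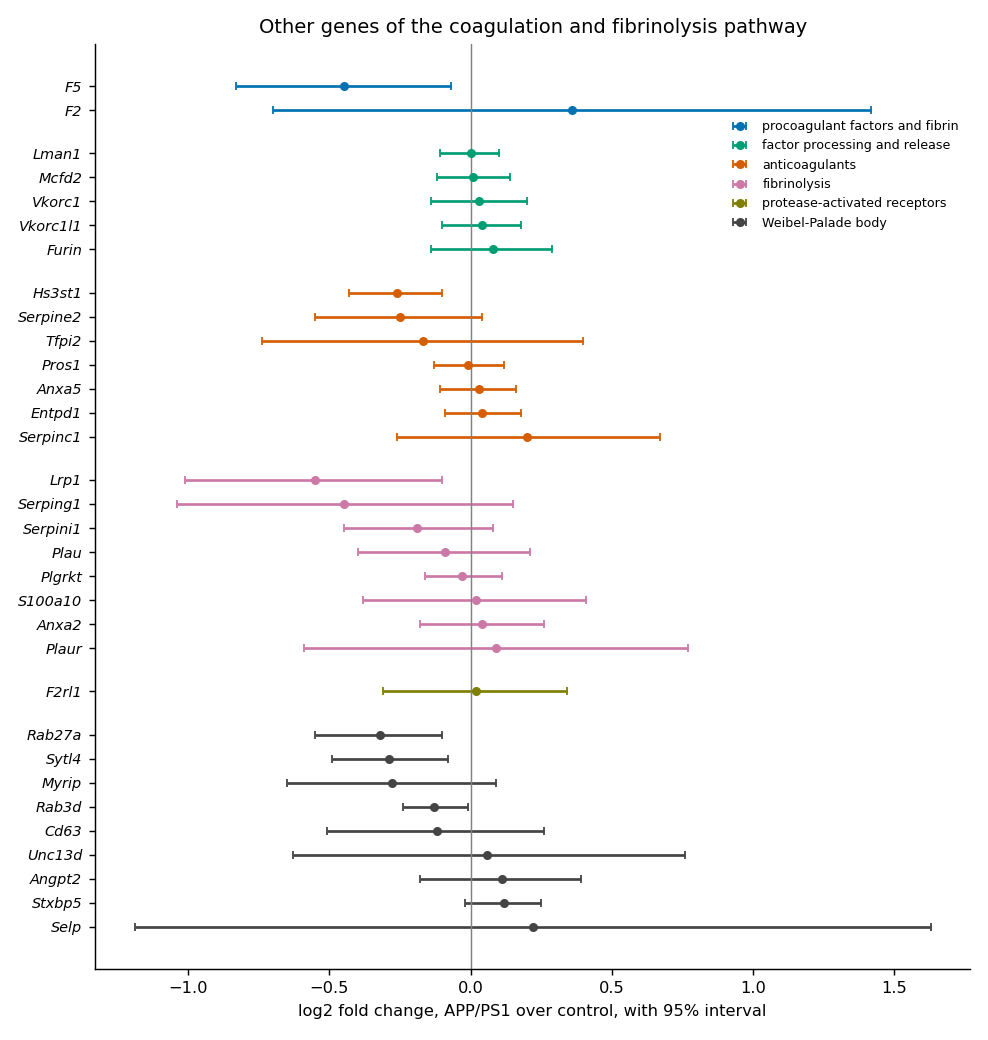
Log2 fold change of APP/PS1 over control BECs with its 95% interval from limma for other measured pathway genes, coloured by group. The intervals of F5, Hs3st1, Lrp1, Rab27a, Sytl4 and Rab3d lie below 0 before adjustment, and no interval shown lies above 0.

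The 8 genes varied from pair to pair more than most genes did. The SD of the 5 paired differences ran from 0.27 log2 units in Vwf to 1.66 in F3, at percentiles of 70.7 to 98.3 of all genes, whose median SD was 0.173. Among the 8, the closest pair was Thbd and Plat, whose paired differences were 0.17 log2 units apart (root mean square), followed by Thbd and F2r at 0.33, Procr and Plat at 0.34 and Procr and Thbd at 0.35. F2r differed in sign from Thbd in replicate 5 (−0.25). Thbd, Plat and Procr had negative differences in replicate 2 (−0.49, −0.30 and −0.69 for Thbd, Plat and Procr) and positive ones in replicates 4 (0.51, 0.71 and 1.04) and 5 (0.30, 0.36 and 0.35). Their signs differed in replicates 1 (0.01, −0.22 and 0.11) and 3 (−0.24, −0.15 and 0.30), so that Procr and Plat shared the sign in only 3 pairs. How many of all genes have these signs was not counted. Plaur, the urokinase receptor gene, differed by 0.20, −1.12, 0.04, 0.80 and 0.52, so that it too was lower in APP/PS1 BECs in replicate 2 and higher in replicates 4 and 5. S100a10, the partner of annexin A2 in binding plasminogen, differed by −0.16, −0.39, −0.16, 0.71 and 0.08. S100a10 was singled out after its values were seen.

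By the same measure, the genes nearest to Procr over all genes were Metrnl and Uap1 (both at 0.14 log2 units), and those nearest to F8 were Tspyl3 and Gm37090 (0.13 and 0.19). Nearest to Plat was Atf3, at 0.08 log2 units, followed by Csrnp1 at 0.09, both of which are known as early response genes. Nearest to Thbd was Zc3h12a at 0.07, the gene of an RNase that is induced in inflammation, and nearest to Vwf was Slco3a1 at 0.05. The neighbours of Plat, Thbd and Vwf were added after their values were seen. Only 5 differences enter this distance, and 8 genes lay within 0.1 of Thbd and 13 within 0.1 of Tfpi.

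Early response genes can be induced while tissue is dissociated. Of 15 listed, 14 were measured. All 14 had positive log2 fold changes (10 of 14 with scaling by totals), beside 6798 of all 14106 genes. Their median was 0.10, the furthest from 0 being Fosb at 0.32. An unadjusted p under 0.05 was found for 1 (background 8.03%) and 0 passed the adjusted threshold. Their summed level ranged from 22000 to 27400 CPM in control and from 25300 to 31300 CPM in APP/PS1 libraries. Their median difference by pair was −0.05, −0.02, 0.06, 0.51 and 0.22, with the sign of Plat in all pairs but that of replicate 3. The 4 measured erythroid markers had medians of −1.58, −3.33, −3.98, 0.83 and 2.35, with the sign of Plat in all 5 pairs, and their summed level ranged from 29.4 to 241 CPM in control and from 14.3 to 153 CPM in APP/PS1 libraries. Of 10 transcription factors known to act on these genes or to hold endothelial identity, 10 had positive log2 fold changes (9 with scaling by totals), with a median of 0.09. Over all 14106 genes, 6798 were positive. The lists are not separate, as Egr1 is in that of the early response genes too. Klf2 and Klf4, which respond to flow and are known to induce Thbd, had 0.16 and 0.25, Klf6 had 0.13, Mef2c 0.09, Ets1 0.21, Erg 0.04, Gata2 0.08, Egr1 0.10, and Rela and Nfkb1 0.05 each. Klf4 and Ets1 had unadjusted p values of 0.0168 and 0.0253, and adjusted values of 0.566 and 0.571, from limma. Other genes with the signs of Plat were not counted, and the part of the dissociation response or of erythroid cells in the pair-to-pair differences was not tested.

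**Figure D5:**
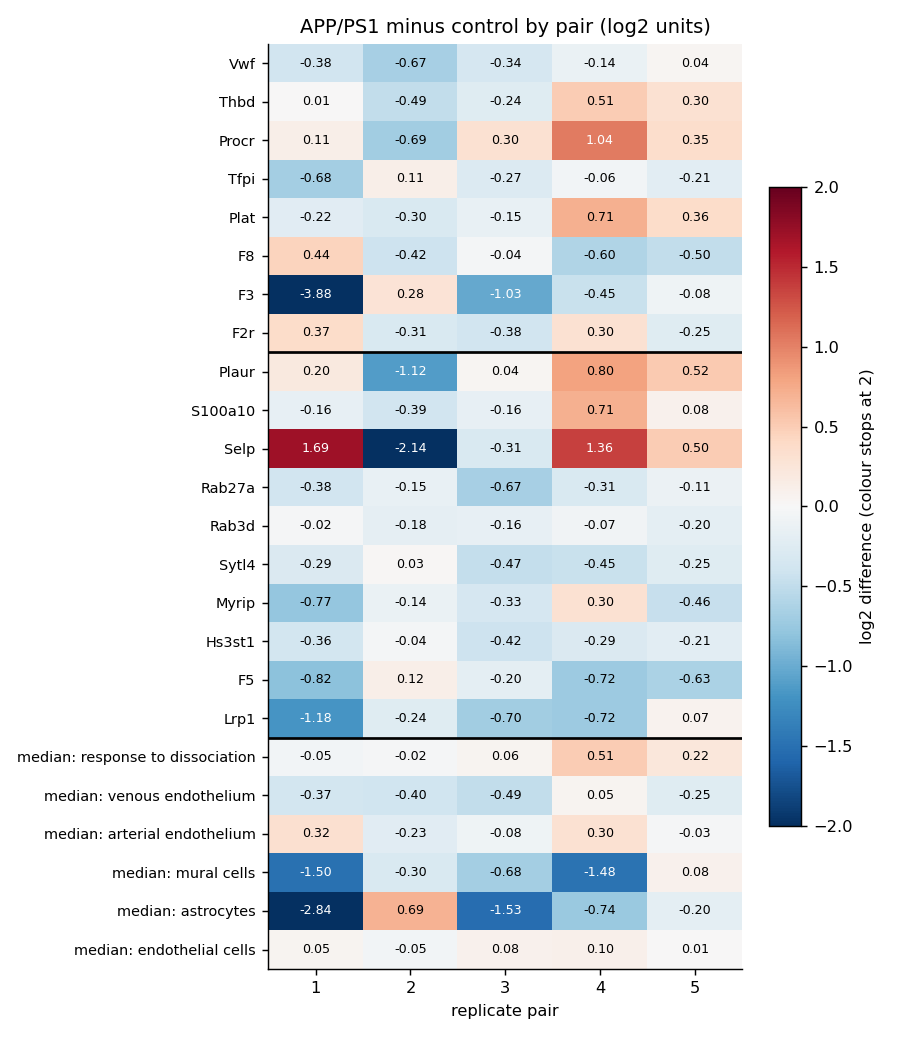
Difference of APP/PS1 minus control in log2 units in each of the 5 replicate pairs, for the 8 genes (top), other pathway genes that the text describes (middle) and the median of 6 marker lists (bottom); red is higher and blue lower in APP/PS1. Thbd, Procr and Plat are blue in replicate 2 and red in replicates 4 and 5, while F3 and the astrocyte median are darkest in replicate 1.

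Fos and Jun bind AP-1 sites, and the stretches of DNA just before the starts of F3, Procr and F2r are shown because each of them holds the letters of such a site. RefSeq promoters of GRCm38.p6 were found for 5 of the 8 genes (Procr, Tfpi, F8, F3 and F2r). The windows of 250 bases before each start were searched on both strands for letters known from the sites of 4 groups of factors and from the TATA box. The AP-1 letters were TGANTCA. Those of SP1 were GGGCGG, and those of EGR1, which can overlap them, were GCGNGGGCG. For KLF factors they were CCNCACCC. The box was searched as TATAAA. Capitals mark every match, and the sequences stop before the first annotated base of the gene. They are F3 at chr3:121723287-121723536 (plus strand), Procr at chr2:155750967-155751116 (plus strand) and F2r at chr13:95618488-95618716 (minus strand), each 5′ to 3′:
F3: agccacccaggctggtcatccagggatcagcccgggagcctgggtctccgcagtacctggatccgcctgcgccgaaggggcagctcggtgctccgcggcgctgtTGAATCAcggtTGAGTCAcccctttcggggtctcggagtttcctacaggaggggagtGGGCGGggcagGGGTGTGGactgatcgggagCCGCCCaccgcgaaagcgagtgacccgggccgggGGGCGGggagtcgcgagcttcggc
Procr: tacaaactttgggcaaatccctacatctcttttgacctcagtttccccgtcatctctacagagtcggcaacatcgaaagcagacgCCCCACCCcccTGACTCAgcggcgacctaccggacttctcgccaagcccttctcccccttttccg
F2r: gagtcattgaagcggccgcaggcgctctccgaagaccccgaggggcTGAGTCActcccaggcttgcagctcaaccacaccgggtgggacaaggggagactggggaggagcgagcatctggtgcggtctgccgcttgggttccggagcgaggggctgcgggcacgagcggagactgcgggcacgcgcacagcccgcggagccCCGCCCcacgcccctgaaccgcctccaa
The F3 window held 2 AP-1 matches, 3 SP1 matches and 1 KLF match. Procr held 1 AP-1 and 1 KLF match, and F2r 1 AP-1 and 1 SP1 match. The windows of F8 and of both starts of Tfpi held 0 AP-1 matches, and no window held the EGR1 letters. Of all 32851 promoter windows of the same length, 6.75% held the AP-1 letters, 32.7% the SP1 letters and 14.9% the KLF letters. These are matches of letters and not measured binding sites.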

How the data were processed

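The deposited log2 CPM values of 14106 genes in 10 libraries were analysed; the 10 files per library equalled their columns of the table. As the study's methods state, the authors used STAR (mm10) and HTSeq-count, removed genes of low count by filterByExpr, computed log2 CPM with edgeR and then applied ComBat for batch. Versions and strandedness are not given in the sources used here. All values converted back to whole adjusted counts (tolerance 0.01, prior count 3). A correction of log2 CPM values would not leave whole numbers, so it acted on counts before the log2 step, unlike the order in the methods. Which correction was used is not known. Since adjusted counts are not reads, they got no counting intervals and no negative binomial model; limma-voom on them was an alternative only.

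Genotype was tested in R 4.3.3 with lmFit and eBayes of limma 3.58.1 on all genes, with the replicate number as a block, with Benjamini-Hochberg adjustment over 14106 genes (threshold 0.05). The numbers pair the libraries because a supplementary plot of the study shows 5 batches, each with a library of both genotypes. The labels give 4 batches. In the median gene the SD of the 5 pair means was 0.00353 log2 units, so each pair was centred on its own, as with 5 batches. Whether paired libraries were alike cannot be checked on the values. Equal pair means set rank correlations of same-numbered deviations between −0.999 and −0.989 in 10873 genes above 2 log2 CPM. The fit was also run on synthetic data, with results that are not reported here. The log2 scale includes the prior count, which understates changes of weak genes. Symbols, positions and exon lengths came from GENCODE M21 (GRCm38), with 14106 of 14106 genes matched.

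The 8 genes and all lists were chosen with earlier results of these data known, and no set test was run. Named were the 8 genes, the 2 strongest and the 2 most changed genes of each pathway group, the most changed gene of each marker list, all regulators, and the 2 nearest genes of the 3 members with the largest paired differences; others are marked where named, and some genes are not reported here by name. Alternatives were no block, 4 batches, eBayes with a trend, limma-voom, 2 other scalings, a lower prior count, a mean of at least 1 log2 CPM, a threshold of 0.10 and each replicate left out.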

Additional observations from a re-analysis of the deposited data

Results flagged for a closer look

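In 56 groups of 5 libraries (the 8 genes and the means of 20 lists, by genotype), 3 times a single library stood off from the nearest other by more than 0.71 of its group's range, and chance alone gives about 2.8 (1 in 20). F3 was at −3.00 log2 CPM in the APP/PS1 library of replicate 1, with the next lowest at −0.75. The mean of the procoagulant list, F5 and F2, was 1.79 in the control library of replicate 5, with the next lowest at 2.38. The mean of the oligodendrocyte lineage list was 0.71 in the control library of replicate 2, with the next lowest at 2.81.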

How the results depend on the processing

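Over 102 combinations of a gene of the 8 with an alternative, 96 kept the direction, 6 turned it, and 0 passed an adjusted p under 0.05; the lowest adjusted p was 0.0655 by limma, for Vwf with no replicate block. Paired and unpaired fits give the same log2 fold changes, and with no replicate block limma called 648 of all genes. With the 4 batches of the labels it called 1, and with each replicate left out between 0 and 5 (5 without replicate 2). Thbd turned to −0.02 with libraries scaled by their totals. With each replicate left out, Thbd lay between −0.10 and 0.15, Plat between −0.08 and 0.18, F2r between −0.16 and 0.03, and the median of the pathway list between −0.07 and 0.03, the lowest of these without replicate 4. Scaling by totals moved the median of all genes to −0.0409 and the share of lower genes at an unadjusted p under 0.05 from 73.5% to 86.3%. F3 and F8 lay below 1 log2 CPM on average and could not be fitted under that minimum. Values of F3 and F8 are limited by adjusted counts, down to 2 and 37.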
